A study of Mus musculus with 6 samples.

Results

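The collagens and laminins are the chain-forming proteins of the extracellular matrix, and their genes were taken from the deposited table by name: every protein-coding gene whose symbol was Col, a number, a and a number, or Lam, one of the letters a, b and c and a digit. The rule found 55 genes, 44 collagens and 11 laminins, among 54532 listed genes, of which 22046 were protein-coding. Of them, 19 were basement membrane chains, comprising 6 type IV collagens, 11 laminins and the multiplexins *Col15a1* and *Col18a1*. A further 11 were fibrillar collagens, and the remaining 25 collagens were treated apart from both. The data were RNA sequencing values of whole mouse testes at 5 days postpartum (dpp), 3 from control (Ctrl) and 3 from conditional knockout (cKO) mice. The cKO mice carried *Vasa*-Cre and a *Srsf1* allele with loxP sites around several exons (*Srsf1* Fl/del). *Vasa* (*Ddx4*) is a germ cell gene, so its Cre driver is directed at germ cells and not at the somatic cells that surround them. The deleted (del) allele, as the genotype is written, does not depend on where Cre acts and would be in somatic cells too. Its part in the values cannot be told apart from that of germ cell loss and was not tested. The labels name the control animals only as Ctrl, and their alleles were not given in the sources used here. The study calls its replicates biological, but the labels do not tie a testis to an animal, so the p-values measure the spread between these samples.

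Basement membranes are thin sheets in which a network of type IV collagen trimers is laid over a polymer of laminin, a cross-shaped trimer of an alpha, a beta and a gamma chain. In the testis such a sheet surrounds each seminiferous cord, where it is laid down by Sertoli cells inside and peritubular myoid cells outside, and spermatogonia come to rest upon it around the age sampled. Fibrillar collagens form the rope-like fibrils of the interstitium between the cords and of the capsule, and the other collagens decorate these fibrils, form separate networks or stay anchored in cell membranes.

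The comparison asked which of these matrix genes had another RNA level in testes whose germ cells had lost *Srsf1*. Values are FPKM, fragments scaled to gene length and sequencing depth, and group values are means ± SD with n = 3 per group throughout. *Srsf1*, a splicing factor and the targeted gene, was measured at 82.1 to 89.1 FPKM in the Ctrl and 45.1 to 51.6 FPKM in the cKO group. The libraries held 15448191 to 18964743 reads assigned to genes, and matrix genes took 1.27% to 2.05% of them. Both ends of this range came from samples that stood apart. Ctrl 2 was the lowest Ctrl testis for 38 of the 47 tested chains (80.9%, against 37.5% of all tested genes), and its summed germ cell markers were the highest at 504 FPKM, against 224 and 243 FPKM in Ctrl 1 and 3. cKO 3 was the highest cKO testis for 27 of the 47 chains (57.4%, against 39.2% of all tested genes). Values without one of these testes are given where they bear on a result. In whole testes, fewer cells of a type and less RNA per cell cannot be told apart.

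Of the 55 genes, 47 reached a mean of 0.5 FPKM across the testes and were tested among 16206 genes by limma on log2(FPKM + 1). No chain passed the adjusted threshold of 0.05 in either direction, and neither did any other tested gene, so the share of genes called was 0% lower and 0% higher. *Srsf1*, the targeted gene, was itself not called, with an adjusted p of 0.0578 by limma, although its groups did not overlap. The study, which tested counts with DESeq2, called genes in both directions in these testes. At an unadjusted p under 0.05, 8 of the 47 chains (17.0%) were higher in cKO testes, where 6.6% of all tested genes were, and 1 chain (2.13%) was lower, where 9.31% of all tested genes were. The 3 cKO values lay wholly above the 3 Ctrl values for 8 chains, against 10.3% of all tested genes, and wholly below them for 2 chains, against 12.8% of all tested genes. The groups overlapped for the other 37 chains. When only the 13204 protein-coding genes were tested together, 37 genes were called higher (0.28%) and 176 lower (1.33%), and among the higher ones were *Col9a2* and *Col25a1*. The same 2 chains were called by limma voom on the reads recovered from the table, where 22 genes were higher (0.136%) and 58 lower (0.358%). No chain was called lower by any of these 3 limma fits.

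**Figure D1:**
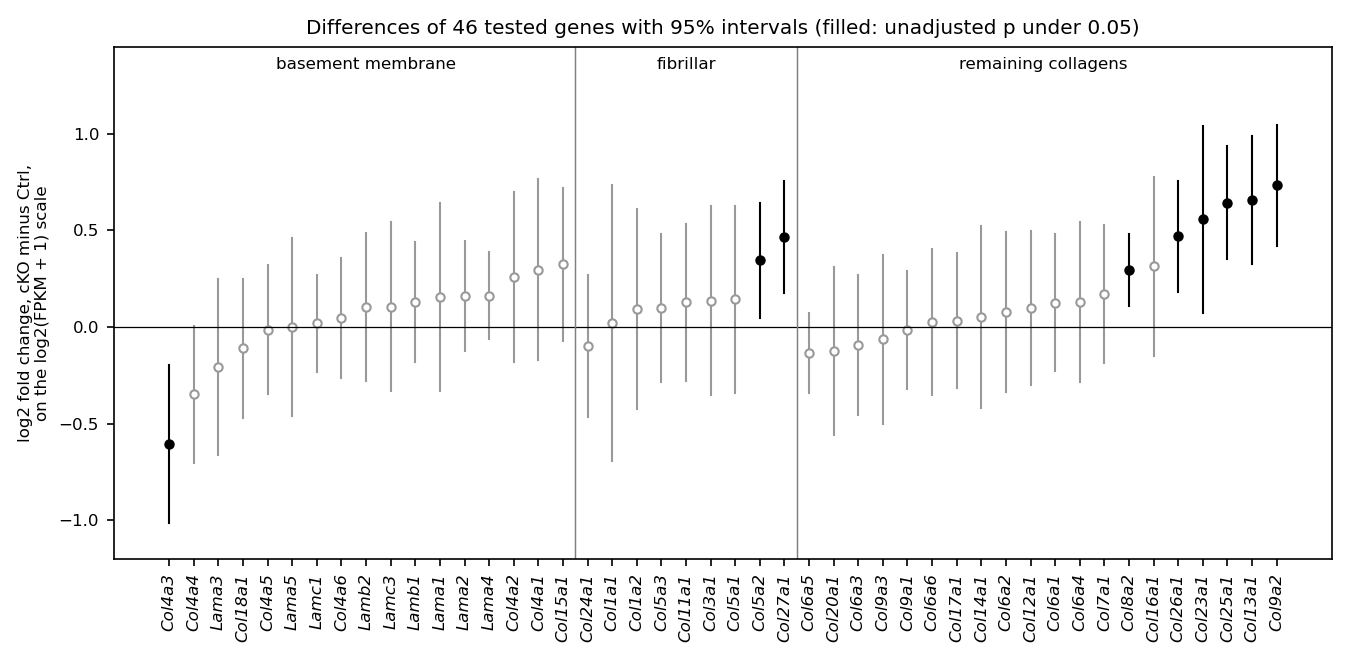
Log2 fold change of 46 of the 47 tested genes (vertical axis, cKO minus Ctrl on the log2(FPKM + 1) scale) with its 95% interval as a bar, ordered by size within the basement membrane, fibrillar and remaining collagen genes. Filled points have an unadjusted p under 0.05: *Col4a3* alone among basement membrane genes, below 0, *Col5a2* and *Col27a1* among fibrillar genes and 6 genes among the remaining collagens, all above 0.

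The median log2 fold change of the 47 chains was 0.10, with 35 positive and 12 negative values, while the median of all tested genes was 0.0027. By class the median was 0.075 for 18 basement membrane chains, 0.13 for 9 fibrillar chains and 0.11 for 20 remaining collagens. The median of the 47 chains was 0.027 without cKO 3 and 0.015 without Ctrl 2, and that of the remaining collagens 0.019 and 0.029. The basement membrane and fibrillar medians depended on single testes for their sign. Without Ctrl 2 the basement membrane median was -0.059, and without cKO 3 the fibrillar median was -0.088. The medians of the 4 transmembrane collagens, 0.60 with all samples, were 0.59 without cKO 3 and 0.42 without Ctrl 2.

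The levels covered a wide range. *Col3a1*, the chain of type III collagen, was the highest of the 55 genes in all 6 testes, followed by *Col1a1*, *Col6a1* and *Col1a2*, whose ranges over the testes overlapped so that their order was not resolved. *Col4a1*, *Col6a2*, *Col4a2*, *Lamb1* and *Col5a2* came next. FPKM between genes depends on the gene length used, since the deposited length is the union of all annotated exons for 53 of the 55 genes and over 1.5 times the longest coding transcript for 14 of them. For example, the *Col1a1* to *Col1a2* ratio of the chains of type I collagen lay between 0.921 and 1.24 per deposited length, and between 0.439 and 0.592 per length of the longest coding transcript. Ratios of FPKM between groups within a gene do not depend on this length, while the log2 fold changes below do in part, since the length sets the weight of the added 1.

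**Figure D2:**
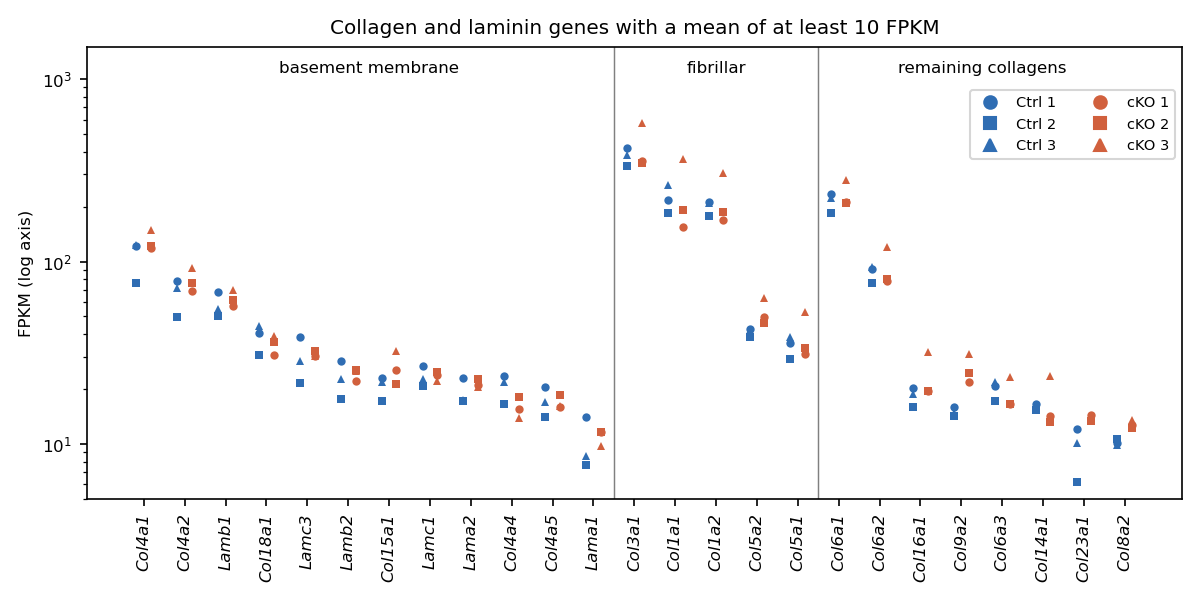
FPKM on a log axis of the 25 genes whose mean was 10 FPKM or more, by class and in descending order within it, with Ctrl testes in blue and cKO testes in orange (circle, square and triangle for replicates 1, 2 and 3). *Col3a1* was highest in every testis, the blue square of Ctrl 2 is the lowest Ctrl point for 24 of the 25 genes, and the orange triangle of cKO 3 lies above the other samples for most fibrillar genes.

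Type IV collagen is made from 6 genes that sit in 3 head-to-head pairs, each pair read in opposite directions from neighbouring starts. *Col4a1* and *Col4a2*, which together form the network found in nearly every basement membrane, overlap by 22 bases at their starts on chromosome 8 (GRCm38), *Col4a4* and *Col4a3* are 71 bases apart on chromosome 1, and *Col4a6* and *Col4a5* are 1308 bases apart on the X chromosome. Because the pairs are the units in which these genes are compared here, the stretch that the first 2 pairs share is shown from the RefSeq windows of GRCm38.p6, each 300 bases long, 250 before the start and 50 after it. The *Col4a2* window lies at chr8:11312555-11312854 on the plus strand, and its capitals mark the 78 bases that are also in the *Col4a1* window. The *Col4a4* window lies at chr1:82586800-82587099 on the minus strand, and its capitals mark the 71 bases between the starts of *Col4a4* and *Col4a3*.
Col4a2: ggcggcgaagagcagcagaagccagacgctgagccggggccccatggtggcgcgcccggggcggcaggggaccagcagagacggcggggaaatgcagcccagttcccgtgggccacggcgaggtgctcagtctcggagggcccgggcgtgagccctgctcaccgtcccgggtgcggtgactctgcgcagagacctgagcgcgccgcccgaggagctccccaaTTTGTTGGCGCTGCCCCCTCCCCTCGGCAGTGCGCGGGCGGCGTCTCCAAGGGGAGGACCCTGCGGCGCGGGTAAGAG
Col4a4: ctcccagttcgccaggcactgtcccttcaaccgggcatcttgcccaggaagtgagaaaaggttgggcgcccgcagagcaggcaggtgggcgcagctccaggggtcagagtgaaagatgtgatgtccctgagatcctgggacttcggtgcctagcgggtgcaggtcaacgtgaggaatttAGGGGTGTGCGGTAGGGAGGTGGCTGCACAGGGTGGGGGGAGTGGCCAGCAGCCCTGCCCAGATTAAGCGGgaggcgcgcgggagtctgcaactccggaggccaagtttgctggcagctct
The *Col4a2* window held 3 copies of the GC box (GGGCGG, or CCGCCC on the other strand) and 1 CCAAT box (CCAAT, or ATTGG on the other strand), while the *Col4a4* window held neither. The GC box was in 35.7% and the CCAAT box in 37.4% of 32851 RefSeq windows of the same length, overlapping matches counted, and in 26 and 14 of the 44 windows found for 40 of the 55 genes.

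The values are given by pair. *Col4a1* was at 122, 76.2 and 123 FPKM in Ctrl 1 to 3 and 118, 122 and 148 FPKM in cKO 1 to 3, and *Col4a2* at 78.3, 49.7 and 71.8 FPKM in Ctrl 1 to 3 and 68.9, 76.0 and 92.1 FPKM in cKO 1 to 3. For both genes Ctrl 2 was low and the other Ctrl testes lay among the cKO values. The log2 fold changes were 0.30 (SE 0.199, adjusted p = 0.499) and 0.26 (SE 0.187, adjusted p = 0.530) by limma, with 95% intervals of -0.17 to 0.76 and -0.18 to 0.70, and without Ctrl 2 they were 0.07 and 0.065. *Col4a3* (chr1:82586921-82722059), whose product joins those of *Col4a4* and *Col4a5* in the specialized network of the kidney glomerulus and the testis, was at 8.34, 5.85 and 8.09 FPKM in Ctrl 1 to 3 and 4.39, 5.65 and 3.61 FPKM in cKO 1 to 3. Every cKO testis was below every Ctrl testis, by a narrow margin between Ctrl 2 and cKO 2. Its mean was 7.43 ± 1.37 FPKM in the Ctrl and 4.55 ± 1.03 FPKM in the cKO testes, a log2 fold change of -0.61 (SE 0.174, adjusted p = 0.191). *Col4a4* (chr1:82448423-82586849) was at 23.5, 16.5 and 21.7 FPKM in Ctrl 1 to 3 and 15.6, 18.1 and 13.9 FPKM in cKO 1 to 3, so cKO 2 lay above Ctrl 2 and the groups overlapped. Its log2 fold change was -0.35 (SE 0.151, adjusted p = 0.320), and -0.49 without Ctrl 2. *Col4a5* was at 20.6, 14.0 and 17.0 FPKM in Ctrl 1 to 3 and 15.9, 18.4 and 16.2 FPKM in cKO 1 to 3, with a log2 fold change of -0.014 (SE 0.142, adjusted p = 0.971), and *Col4a6*, its partner, stayed the lower of the 2 in all testes, at 3.27 to 4.94 FPKM in the Ctrl and 4.10 to 4.36 FPKM in the cKO testes.

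Ratios of chains within a testis do not depend on scaling between libraries and were compared next. The *Col4a1* to *Col4a2* ratio was 1.56, 1.54 and 1.72 in Ctrl 1 to 3 and 1.72, 1.60 and 1.61 in cKO 1 to 3. The *Col4a5* to *Col4a6* ratio lay between 3.65 and 4.39, and in both of these pairs the groups overlapped. The *Col4a3* to *Col4a4* ratio was 0.355, 0.355 and 0.372 in Ctrl 1 to 3 and 0.282, 0.312 and 0.260 in cKO 1 to 3, lower in every cKO testis. The *Col4a4* to *Col4a1* ratio was 0.192, 0.216 and 0.176 in Ctrl 1 to 3 and 0.132, 0.149 and 0.0938 in cKO 1 to 3, also lower in every cKO testis than in any Ctrl testis. Of 13 chain ratios computed, 4 did not overlap between groups, and 3 against 3 samples cannot give a two-sided exact permutation p below 0.1. The pairs were picked, some share a chain, and the share without overlap among other gene pairs was not computed. The ratios are made from the values above and are not separate from them.

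**Figure D3:**
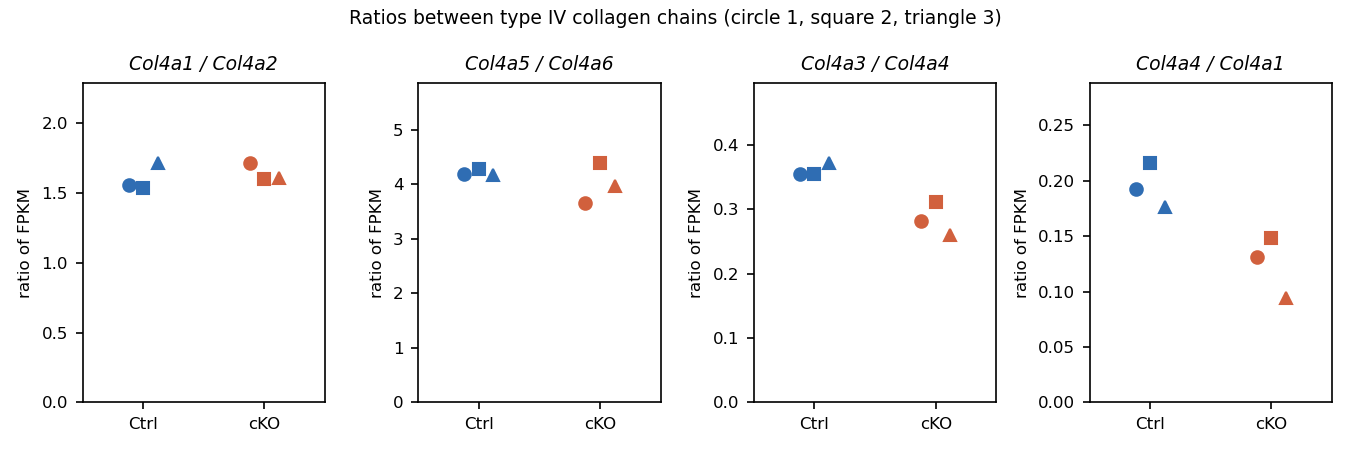
Ratios of FPKM between type IV collagen chains in each testis, from 0 on each vertical axis, with Ctrl in blue and cKO in orange (circle, square and triangle for replicates 1, 2 and 3). The *Col4a1* to *Col4a2* and *Col4a5* to *Col4a6* ratios overlap between groups, and the *Col4a3* to *Col4a4* and *Col4a4* to *Col4a1* ratios are lower in all 3 cKO testes.

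Among the laminins, *Lamb1*, *Lamc3*, *Lamb2* and *Lamc1* had the highest mean levels per deposited length. Per length of the longest coding transcript, the alpha chain *Lama2* came above *Lamc3*, with Ctrl means of 32.6 and 30.6 FPKM, and *Lamb1* stayed highest. *Lamb1*, the beta chain of most early laminins, was at 68.1, 50.4 and 54.6 FPKM in Ctrl 1 to 3 and 57.3, 61.7 and 69.7 FPKM in cKO 1 to 3. *Lamc3*, a less common gamma chain, was at 38.4, 21.6 and 28.7 FPKM in Ctrl 1 to 3 and 30.5, 32.2 and 30.4 FPKM in cKO 1 to 3. *Lamc1*, the gamma chain of most laminins, was at 26.6, 20.8 and 22.7 FPKM in Ctrl 1 to 3 and 23.8, 24.9 and 22.2 FPKM in cKO 1 to 3. In all 3 genes the groups overlapped, and Ctrl 1 was at or near the top of the range and Ctrl 2 at its foot. Their log2 fold changes by limma were 0.13 (SE 0.132, adjusted p = 0.665), 0.11 (SE 0.187, adjusted p = 0.817) and 0.02 (SE 0.106, adjusted p = 0.944), and without Ctrl 2 they were 0.039, -0.094 and -0.057. *Lamb2* was at 17.6 to 28.4 FPKM in the Ctrl and 22.2 to 25.6 FPKM in the cKO testes. Of the alpha chains, which carry the binding sites for cell receptors, *Lama2* was highest at 17.2 to 22.9 FPKM in the Ctrl and 20.5 to 22.7 FPKM in the cKO testes, and *Lama1* followed at 7.66 to 14.1 and 9.75 to 11.7 FPKM. *Lama4*, *Lama3* and *Lama5* were under 6 FPKM in every testis, and *Lamb3* was under the filter. Of the 10 tested laminins, 0 had an unadjusted p under 0.05 by limma on all tested genes, among protein-coding genes alone or by limma voom. Their adjusted p by limma lay between 0.451 and 1.00. Without Ctrl 1, *Lama1* and *Lama2* were higher in cKO testes at an unadjusted p under 0.05, as were 5.64% of all tested genes. Without Ctrl 2, *Col4a3* and *Col4a4* were among 3 basement membrane chains lower at an unadjusted p under 0.05, against 1 with all samples, and 6.69% of all tested genes were lower at that p. The ratios of *Lamb1* to *Lamb2*, *Lamc1* to *Lamc3* and *Lama2* to *Lama1* all overlapped between groups.

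The multiplexins, which are proteoglycans and release anti-angiogenic fragments, overlapped between groups in both genes. *Col15a1* was at 22.9, 17.3 and 21.9 FPKM in Ctrl 1 to 3 and 25.5, 21.2 and 32.3 FPKM in cKO 1 to 3, a log2 fold change of 0.32 (SE 0.169, adjusted p = 0.403) that was 0.21 without Ctrl 2 and 0.17 without cKO 3. *Col18a1* was at 40.5, 30.6 and 44.1 FPKM in Ctrl 1 to 3 and 30.8, 36.1 and 38.9 FPKM in cKO 1 to 3, a log2 fold change of -0.11 (SE 0.152, adjusted p = 0.757) that was -0.26 without Ctrl 2 and -0.18 without cKO 3. *Col18a1* overlaps *Slc19a1* on the opposite strand over 8825 bases, and whether counting used strand was not given in the sources used here. Summed over its 19 genes, the basement membrane class was at 532, 360.2 and 479 FPKM in Ctrl 1 to 3 and 462, 493 and 538 FPKM in cKO 1 to 3, a cKO to Ctrl ratio of 1.09. The sums overlapped, with Ctrl 2 lowest of all. Those of Ctrl 1 and 3 lay within the range of the cKO sums, so a ratio above 1 depended on Ctrl 2. Markers of both cord cell types are given beside these values. The 6 peritubular myoid markers summed to 521, 522 and 533 FPKM in Ctrl 1 to 3 and 377, 328 and 511 FPKM in cKO 1 to 3, lower in every cKO testis. Most of this sum was *Acta2*, at a mean of 456 FPKM in the Ctrl and 350 FPKM in the cKO testes. Singly, 2 of the 6 lay wholly below the Ctrl values (against 12.8% of all tested genes). *Des* lay wholly above them (against 10.3%), and 3 overlapped. The 12 Sertoli cell markers summed to 2354, 1842 and 2339.7 FPKM in Ctrl 1 to 3 and 1952, 2119 and 2249 FPKM in cKO 1 to 3, with overlap and Ctrl 2 lowest. Members of this list went both ways within the sum. *Amh* lay wholly above the Ctrl values (against 10.3% of all tested genes). Wholly below them lay 4 genes (against 12.8%), among them *Aard* and *Cldn11*, and the other 7 overlapped. The part of both lists in the basement membrane values was not tested.

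The fibrillar class was carried by *Col3a1*, *Col1a1* and *Col1a2*. *Col3a1* was at 418, 336 and 383 FPKM in Ctrl 1 to 3 and 357, 348 and 575 FPKM in cKO 1 to 3, *Col1a1* at 216, 184 and 261 FPKM in Ctrl 1 to 3 and 155, 192 and 363 FPKM in cKO 1 to 3, and *Col1a2* at 212, 179 and 210.4 FPKM in Ctrl 1 to 3 and 169, 187 and 306 FPKM in cKO 1 to 3. cKO 3 was the highest of the 6 testes for each, while cKO 1 and cKO 2 lay within or below the Ctrl values. Their log2 fold changes by limma were 0.14 (SE 0.207, adjusted p = 0.782), 0.021 (SE 0.305, adjusted p = 0.981) and 0.095 (SE 0.220, adjusted p = 0.866), with 95% intervals of -0.35 to 0.62, -0.70 to 0.74 and -0.42 to 0.61. Without cKO 3 they were -0.10, -0.33 and -0.17. The summed level of the 11 fibrillar genes was 938, 776 and 948 FPKM in Ctrl 1 to 3 and 776, 820.4 and 1377 FPKM in cKO 1 to 3, and the cKO to Ctrl ratio of 1.12 was 0.899 without cKO 3. cKO 3 was the highest cKO testis for 8 of the 9 tested fibrillar chains and for 6 of the 18 basement membrane chains. Mesothelial markers, genes of the epithelium that covers the testis, summed to 7.95, 21.5 and 17.9 FPKM in Ctrl 1 to 3 and 5.07, 15.6 and 24.9 FPKM in cKO 1 to 3, and globin and other erythroid markers to 438, 487 and 697 FPKM in Ctrl 1 to 3 and 836, 526 and 1479 FPKM in cKO 1 to 3. Both sums were highest in cKO 3, and their part in the fibrillar values was not tested.

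For 2 of the 9 tested fibrillar genes the groups did not overlap, against 10.3% of all tested genes. *Col5a2* (chr1:45374321-45503282), a chain of the type V collagen that sits within type I fibrils and limits their width, was at 42.7, 38.4 and 42.3 FPKM in Ctrl 1 to 3 and 49.4, 46.2 and 63.3 FPKM in cKO 1 to 3. All 3 cKO testes were above the Ctrl range, with cKO 3 farthest, and the log2 fold change was 0.35 (SE 0.127, adjusted p = 0.266) by limma and 0.21 without cKO 3. *Col27a1* (chr4:63214004-63334991), a fibrillar chain best known from cartilage, was at 2.57, 2.18 and 2.56 FPKM in Ctrl 1 to 3 and 4.20, 3.10 and 3.99 FPKM in cKO 1 to 3, 1.54-fold higher in the cKO mean, with a log2 fold change of 0.46 (SE 0.124, adjusted p = 0.166). *Col5a1*, the partner of *Col5a2*, was at 35.7, 29.2 and 38.6 FPKM in Ctrl 1 to 3 and 31.1, 33.4 and 52.6 FPKM in cKO 1 to 3, and its groups overlapped. *Col5a3*, *Col11a1* and *Col24a1* also overlapped, at 0.435 to 7.43 FPKM. Without cKO 3, *Col27a1* was the 1 fibrillar chain with an unadjusted p under 0.05, and the same held without Ctrl 2 and without Ctrl 3, where 5.87%, 4.59% and 6.51% of all tested genes were higher at that p. The cartilage chains *Col2a1* and *Col11a2* were under the filter in these testes.

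**Figure D4:**
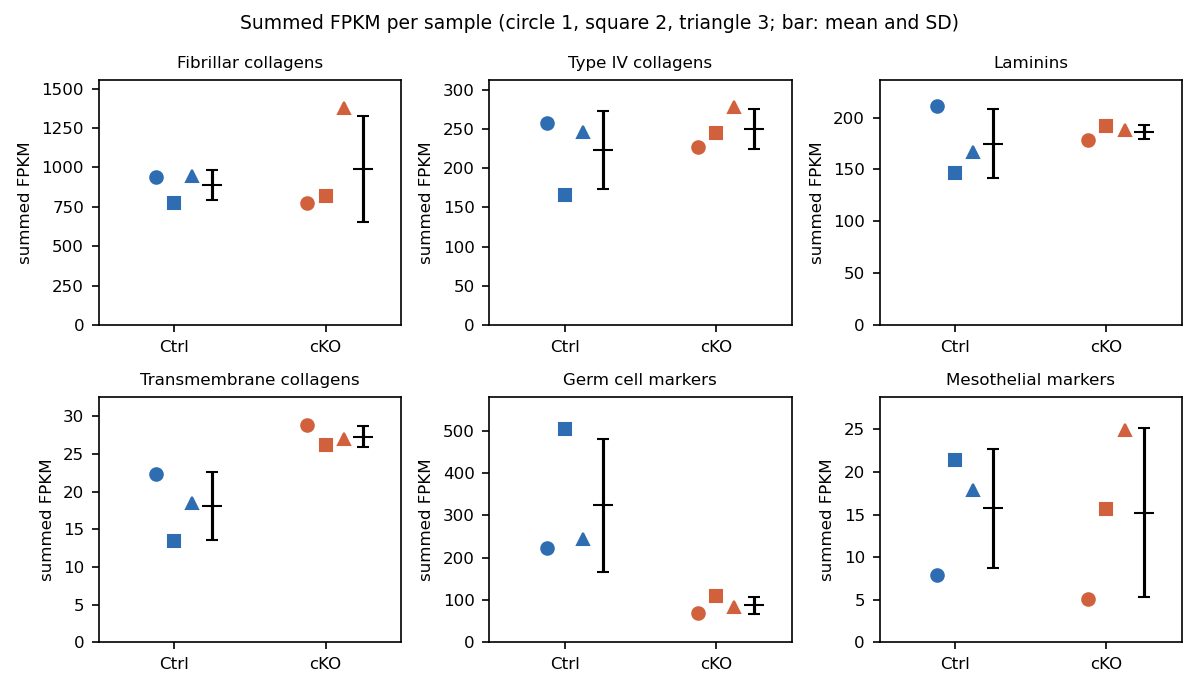
Summed FPKM per testis of the fibrillar, type IV and transmembrane collagens, the laminins and the germ cell and mesothelial marker lists, from 0 on each vertical axis, with mean and SD beside the points. The fibrillar sum of cKO 3 is far above the other testes, the type IV and laminin sums of Ctrl 2 are the lowest, and the transmembrane sums of all 3 cKO testes are above those of all 3 Ctrl testes.

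Type VI collagen forms beaded filaments close to cell surfaces, from alpha chains 1, 2 and 3 in its common form. *Col6a1* was at 233, 184 and 224 FPKM in Ctrl 1 to 3 and 213, 209 and 281 FPKM in cKO 1 to 3, with a log2 fold change of 0.13 (SE 0.151, adjusted p = 0.715) by limma that was 0.024 without Ctrl 2 and -0.0093 without cKO 3. *Col6a2* was at 76.7 to 93.1 FPKM in the Ctrl and 78.4 to 120.3 FPKM in the cKO testes, and *Col6a3* at 17.2 to 21.9 and 16.5 to 23.2 FPKM. The groups overlapped for all 3 genes. The *Col6a3* to *Col6a1* ratio was 0.0889, 0.0935 and 0.0978 in Ctrl 1 to 3 and 0.0776, 0.0790 and 0.0828 in cKO 1 to 3, and every cKO testis was below every Ctrl testis. Of the related chains *Col6a4*, *Col6a5* and *Col6a6*, *Col6a5* did not overlap between groups, at 6.33, 6.43 and 6.75 FPKM in Ctrl 1 to 3 and 5.36, 6.23 and 5.92 FPKM in cKO 1 to 3, but its unadjusted p was not under 0.05 and its adjusted p by limma was 0.487.

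*Col9a2* (chr4:121039385-121055322) had the largest positive difference of the 47 chains on the log2(FPKM + 1) scale, though not by limma voom, where *Col25a1* was ahead at 1.00. Type IX collagen is a fibril-associated collagen of 3 chains, and because *Col9a2* was past the adjusted threshold in 2 of the 3 fits above, its RefSeq window is shown, at chr4:121039316-121039615 on the plus strand of GRCm38.p6, with its 3 GC boxes in capitals.
Col9a2: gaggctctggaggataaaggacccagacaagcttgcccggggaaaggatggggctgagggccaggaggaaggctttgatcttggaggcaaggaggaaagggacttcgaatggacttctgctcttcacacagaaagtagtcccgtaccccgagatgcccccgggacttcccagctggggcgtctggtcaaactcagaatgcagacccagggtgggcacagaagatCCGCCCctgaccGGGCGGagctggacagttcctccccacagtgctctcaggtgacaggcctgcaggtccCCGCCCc
*Col9a2* was at 16.0, 14.2 and 14.7 FPKM in Ctrl 1 to 3 and 21.8, 24.4 and 31.2 FPKM in cKO 1 to 3. The groups did not overlap, and the cKO testes spread more widely than the Ctrl testes. The mean was 15.0 ± 0.950 FPKM in the Ctrl and 25.8 ± 4.82 FPKM in the cKO testes, a 1.72-fold higher level with a log2 fold change of 0.73 (SE 0.134, adjusted p = 0.102) by limma on all tested genes. The adjusted p was 0.0370 among protein-coding genes alone and 0.0457 by limma voom, and without cKO 3 the log2 fold change was 0.59. The other chains of type IX collagen were low, *Col9a3* at 1.93 to 3.50 FPKM and *Col9a1* at 0.497 to 0.695 FPKM over the 6 testes, and their groups overlapped. The *Col9a2* to *Col9a3* ratio was 4.59, 7.13 and 5.46 in Ctrl 1 to 3 and 8.28, 12.7 and 10.1 in cKO 1 to 3, higher in every cKO testis.

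The remaining tested fibril-associated collagens overlapped between groups. *Col16a1* was at 20.3, 16.0 and 18.7 FPKM in Ctrl 1 to 3 and 19.4, 19.4 and 31.9 FPKM in cKO 1 to 3, with a log2 fold change of 0.31 (SE 0.197, adjusted p = 0.477) by limma, and *Col14a1* at 16.5, 15.4 and 15.6 FPKM in Ctrl 1 to 3 and 14.3, 13.1 and 23.6 FPKM in cKO 1 to 3, with a log2 fold change of 0.053 (SE 0.200, adjusted p = 0.919). In both genes cKO 3 was alone above the other 5 testes, and without it the log2 fold changes were 0.084 and -0.19. *Col12a1* and *Col20a1* overlapped too, and *Col19a1* and *Col22a1* were under the filter. *Col8a2* (chr4:126286793-126314330), a short-chain collagen that forms hexagonal lattices, was at 10.2, 10.7 and 9.84 FPKM in Ctrl 1 to 3 and 12.7, 12.2 and 13.4 FPKM in cKO 1 to 3. Its spread was small within both groups, which did not overlap, and the log2 fold change was 0.30 (SE 0.0801, adjusted p = 0.171). *Col26a1* (chr5:136741759-136883209), first cloned from testis and ovary, was at 4.62, 3.92 and 4.78 FPKM in Ctrl 1 to 3 and 6.63, 5.59 and 7.43 FPKM in cKO 1 to 3, 1.48-fold higher in the cKO mean with no overlap and a log2 fold change of 0.47 (SE 0.122, adjusted p = 0.163).

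The transmembrane collagens, which span the cell membrane with their collagen domain outside, held 3 of the 8 chains above. *Col25a1* and *Col13a1* are shown by their RefSeq windows because they followed *Col9a2* in their p-values. The *Col25a1* window lies at chr3:130180595-130180894 on the plus strand of GRCm38.p6, with 2 GC boxes and 1 CCAAT box in capitals, and lies inside the deposited gene, whose first annotated start is farther upstream. The *Col13a1* window lies at chr10:61979059-61979358 on the minus strand, with 1 match to the TATA box sequence (TATAAA, or TTTATA on the other strand) in capitals. The match is near the upstream end of the window, away from the start. This sequence was found anywhere in the window in 13.6% of all windows and in 5 of the 44 windows of collagen and laminin genes.
Col25a1: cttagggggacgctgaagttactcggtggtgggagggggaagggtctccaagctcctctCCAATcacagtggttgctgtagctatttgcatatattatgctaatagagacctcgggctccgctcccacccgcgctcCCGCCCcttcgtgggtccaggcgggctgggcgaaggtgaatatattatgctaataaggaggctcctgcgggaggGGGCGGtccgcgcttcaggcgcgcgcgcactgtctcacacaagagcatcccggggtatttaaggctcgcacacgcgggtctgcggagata
Col13a1: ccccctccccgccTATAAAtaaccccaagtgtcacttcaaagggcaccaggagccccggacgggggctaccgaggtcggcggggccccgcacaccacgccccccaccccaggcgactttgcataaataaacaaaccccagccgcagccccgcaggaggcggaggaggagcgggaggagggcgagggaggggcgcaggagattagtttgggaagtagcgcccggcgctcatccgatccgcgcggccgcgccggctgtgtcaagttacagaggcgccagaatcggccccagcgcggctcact
*Col25a1* (chr3:130131501-130599877), best known from neurons, was at 1.47, 1.09 and 1.54 FPKM in Ctrl 1 to 3 and 2.98, 2.59 and 2.50 FPKM in cKO 1 to 3. The groups were far apart relative to their spread, 1.97-fold on the means, and the log2 fold change was 0.64 (SE 0.124, adjusted p = 0.105) by limma on all tested genes. Its adjusted p was 0.0399 among protein-coding genes alone and 0.0406 by limma voom. *Col13a1* (chr10:61838236-61979108), a collagen of cell adhesion sites and the neuromuscular junction, was at 6.0, 3.99 and 4.82 FPKM in Ctrl 1 to 3 and 8.86, 7.39 and 8.67 FPKM in cKO 1 to 3. It was 1.68-fold higher in the cKO mean, with a log2 fold change of 0.66 (SE 0.141, adjusted p = 0.119) and an adjusted p of 0.0536 among protein-coding genes and 0.0561 by limma voom. *Col23a1* (chr11:51289920-51583918) was at 12.0, 6.16 and 10.1 FPKM in Ctrl 1 to 3 and 14.4, 13.4 and 13.8 FPKM in cKO 1 to 3, with Ctrl 2 far below the other Ctrl testes. Its log2 fold change of 0.56 (SE 0.206, adjusted p = 0.267) was 0.31 without Ctrl 2. *Col17a1*, the hemidesmosomal collagen, was at 1.95 to 2.89 FPKM and its groups overlapped. The 4 genes summed to 22.4, 13.4 and 18.4 FPKM in Ctrl 1 to 3 and 28.8, 26.1 and 27.0 FPKM in cKO 1 to 3, a ratio of 1.51 and 1.52 without cKO 3. The sum was lowest in Ctrl 2, which raised this ratio. Without Ctrl 2 the median log2 fold change of the 4 genes was 0.42, against 0.60 with all samples. Leydig cell markers, of the steroid-producing cells between the cords, summed to 576, 659 and 755 FPKM in Ctrl 1 to 3 and 913, 835 and 800.0 FPKM in cKO 1 to 3, and endothelial markers to 58.8, 48.0 and 49.6 FPKM in Ctrl 1 to 3 and 69.2, 62.5 and 66.3 FPKM in cKO 1 to 3. Both sums were also above the Ctrl range in every cKO testis. Singly, 4 of 7 Leydig and 3 of 7 endothelial markers lay wholly above the Ctrl values, against 10.3% of all tested genes, and the others overlapped. The part of both lists in the transmembrane values was not tested.

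**Figure D5:**
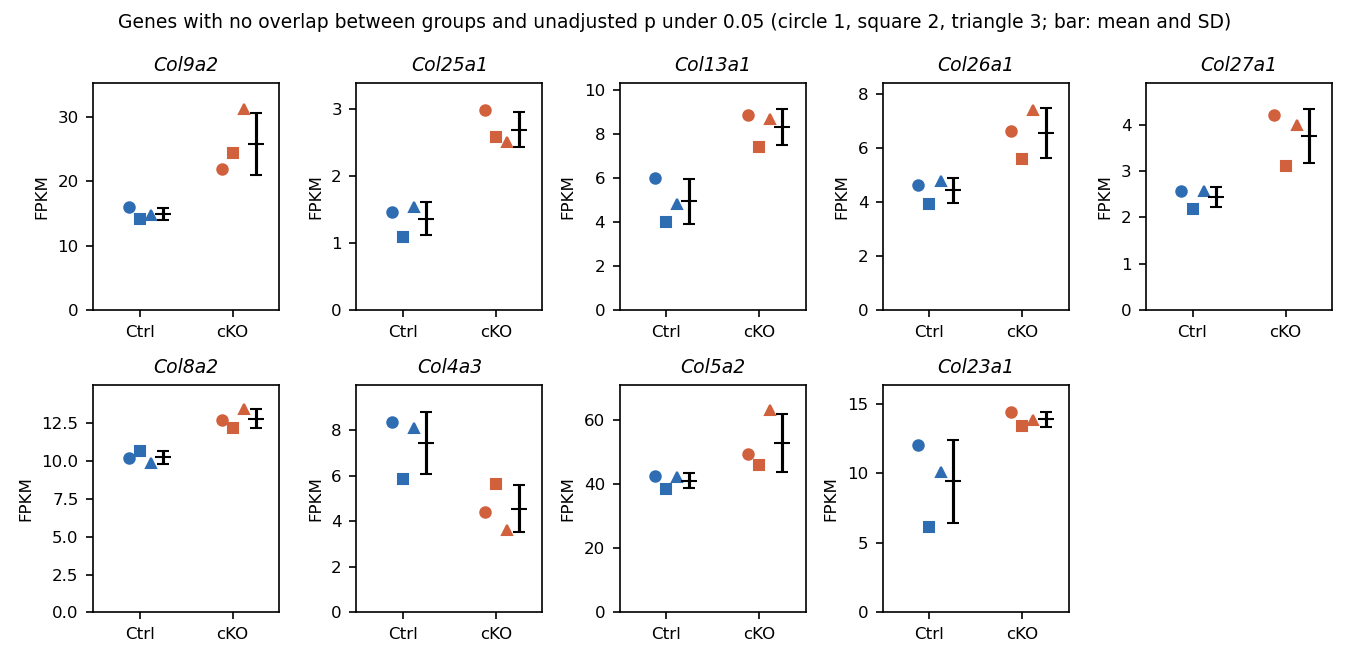
FPKM per testis of the 9 collagens with no overlap between groups and an unadjusted p under 0.05, in order of p and from 0 on each vertical axis, with mean and SD beside the points (Ctrl in blue, cKO in orange). Of these, 8 are higher in all 3 cKO testes, with *Col9a2* and *Col25a1* first, and *Col4a3* is lower.

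The tested chains with means under 10 FPKM, other than those with no overlap and an unadjusted p under 0.05, are summarised together. The 16 reported here, some of them given above, had means of 0.564 to 6.34 FPKM, log2 fold changes of -0.21 to 0.17 and adjusted p of 0.451 to 1.00 by limma. The 8 genes under the filter were *Col8a1*, *Col22a1*, *Col11a2*, *Lamb3*, *Col2a1*, *Col28a1*, *Col10a1* and *Col19a1*. None exceeded 0.828 FPKM in any testis, and they were not tested or counted among the chains without overlap. Of them, *Col8a1* and *Col22a1* lay wholly below and *Col2a1* wholly above the Ctrl values, and the others overlapped. For a gene of 1 kb, 3 reads gave 0.158 to 0.194 FPKM, a floor that covers counting error only.

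Genes that make, bind and remodel the matrix were followed in 5 lists, and 0 of their genes passed the adjusted threshold by limma on all tested genes, among protein-coding genes alone or by limma voom. The lists were chosen with earlier results of these data known, so their counts below are descriptions and no test of the lists. Genes of these lists without overlap stand against 10.3% of all tested genes wholly above and 12.8% wholly below the Ctrl values. Of 10 other basement membrane proteins, 2 were higher (against 6.6% of all tested genes) and 1 lower (against 9.31%) at an unadjusted p under 0.05, and the lower one was not past it without Ctrl 2 or without cKO 3. *Agrn*, agrin, a heparan sulfate proteoglycan that binds laminin, was at 8.58, 7.36 and 9.29 FPKM in Ctrl 1 to 3 and 12.0, 13.2 and 11.0 FPKM in cKO 1 to 3, and *Tinagl1* was at 4.65, 4.19 and 5.81 FPKM in Ctrl 1 to 3 and 7.54, 6.73 and 7.99 FPKM in cKO 1 to 3. *Ntn4*, a netrin that opens laminin polymers, was at 2.28, 2.99 and 2.80 FPKM in Ctrl 1 to 3 and 1.36, 2.21 and 1.02 FPKM in cKO 1 to 3. Neither *Agrn* nor *Tinagl1* overlapped between groups, and *Ntn4* was lower in every cKO testis. Their adjusted p by limma were 0.139, 0.144 and 0.226.

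Of 11 tested receptors, 2 were lower (against 9.31% of all tested genes) and 0 higher (against 6.6%) at an unadjusted p under 0.05. *Itga6*, the integrin alpha chain by which spermatogonia and other cells bind laminin, was at 19.2, 17.3 and 17.5 FPKM in Ctrl 1 to 3 and 14.3, 13.6 and 12.4 FPKM in cKO 1 to 3, and *Itga7*, another laminin-binding alpha chain, at 2.13, 1.87 and 1.68 FPKM in Ctrl 1 to 3 and 1.20, 1.43 and 1.28 FPKM in cKO 1 to 3. The groups did not overlap in either gene, with adjusted p of 0.125 and 0.256 by limma. *Ddr2*, a receptor kinase for fibrillar collagen, was higher in every cKO testis, at 8.31 ± 0.558 FPKM in the Ctrl and 9.09 ± 0.201 FPKM in the cKO testes, with an adjusted p by limma of 0.525. Germ cell markers were lower at an unadjusted p under 0.05 for 11 of 13 tested genes and summed to 224, 504 and 243 FPKM in Ctrl 1 to 3 and 70.1, 109 and 82.6 FPKM in cKO 1 to 3, and their part in the receptor values was not tested.

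Of 25 tested genes of collagen biosynthesis and crosslinking, 4 were higher (against 6.6% of all tested genes) and 0 lower (against 9.31%) at an unadjusted p under 0.05, and the higher ones numbered 2 without cKO 3 and 1 without Ctrl 2. *Bmp1*, the protease that trims fibrillar procollagens, was at 24.8 ± 2.72 FPKM in the Ctrl and 31.7 ± 1.62 FPKM in the cKO testes. *P3h2*, a prolyl hydroxylase, was at 1.25 ± 0.365 FPKM in the Ctrl and 1.93 ± 0.178 FPKM in the cKO testes, and *Pxdn*, peroxidasin, which crosslinks type IV collagen, at 22.8 ± 1.56 FPKM in the Ctrl and 27.6 ± 2.88 FPKM in the cKO testes. None of the 3 overlapped between groups, and their adjusted p by limma were 0.195, 0.267 and 0.290. Of 12 proteoglycans and glycoproteins of fibrils, 2 were higher (against 6.6% of all tested genes) and 0 lower (against 9.31%) at that p, with 0 higher without cKO 3 and 1 without Ctrl 2. *Vcan*, versican, was at 8.79 ± 0.838 FPKM in the Ctrl and 11.2 ± 1.5 FPKM in the cKO testes, and *Dcn*, decorin, at 178 ± 8.76 FPKM in the Ctrl and 210.3 ± 16.9 FPKM in the cKO testes, with adjusted p by limma of 0.283 and 0.30. Of 8 matrix proteases and inhibitors, 4 were higher (against 6.6% of all tested genes) and 0 lower (against 9.31%), among them 3 metalloproteinases without overlap, and 3 were higher without cKO 3 and 3 without Ctrl 2. *Mmp23* was at 25.1 ± 2.29 FPKM in the Ctrl and 31.0 ± 1.35 FPKM in the cKO testes, *Mmp11* at 57.1 ± 8.50 FPKM in the Ctrl and 71.7 ± 3.11 FPKM in the cKO testes, and *Mmp2*, a gelatinase that cleaves type IV collagen, at 77.6 ± 4.37 FPKM in the Ctrl and 106 ± 26.0 FPKM in the cKO testes, with adjusted p by limma of 0.213, 0.262 and 0.298.

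The remaining cell type markers give the setting of these values. The 6 interstitial fibroblast markers, which share *Dcn* with the fibril list, summed to 429.9, 409 and 401 FPKM in Ctrl 1 to 3 and 485, 443 and 520.3 FPKM in cKO 1 to 3, higher in every cKO testis. Singly, 2 of the 6 lay wholly above the Ctrl values, against 10.3% of all tested genes, and 4 overlapped. The 8 macrophage markers summed to 59.5 to 77.6 FPKM in Ctrl and 67.9 to 81.5 FPKM in the cKO testes. Skeletal muscle markers summed to at most 5.01 FPKM with *Acta1* at or under 0.041 FPKM, adipocyte markers to at most 6.75 FPKM with *Lep* listed at 0, and cartilage markers to at most 1.23 FPKM. The epididymal and rete epithelium list was led by *Epcam*, which germ cells also carry, at 19.8, 22.4 and 16.5 FPKM in Ctrl 1 to 3 and 6.39, 9.19 and 10.9 FPKM in cKO 1 to 3. The labels' account of extraction speaks of retinas although the tissue is given as testis, and the 8 retina markers were at most 0.311 FPKM, with *Crx* and *Nrl* listed at 0, while Sertoli and Leydig cell markers reached 917 and 355 FPKM.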

How the data were processed

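According to the study's methods, polyadenylated RNA of whole testes was sequenced from both fragment ends (Illumina NovaSeq). The submitters' processing notes name HISAT2 2.0.5 and the mouse build mm10 (GRCm38). The authors deposited FPKM values, with the length by which they scaled each gene. Products of FPKM and length were whole reads (100% within 0.01), 15448191 to 18964743 per testis, and no pair of replicates agreed within sampling noise (lowest chi-square per degree of freedom 10.3).

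Genes whose mean reached 0.5 FPKM were tested on log2(FPKM + 1) with limma (version 3.58.1, R 4.3.3), with 2 groups, no covariate, a mean-variance trend, two-sided p and Benjamini-Hochberg adjustment at 0.05. The study tested counts, but the deposited unit called for a test on log2 values, and limma voom on recovered reads was an alternative, as were other scalings, filters and pseudocounts, a replicate block and leaving out each testis. The script was run on simulated reads whose changed genes differed more than any chain here. That run does not bear on differences of the size given above. A log2 fold change of log2(FPKM + 1) values understates differences of low genes. Values per testis were given for chains with means of 10 FPKM or more, singly or as ranges, and for those with no overlap and an unadjusted p under 0.05, and up to 3 genes without overlap were named per pathway list, by smallest p. Chains and lists were chosen with earlier results of these data known. One tested chain is not reported singly here. Roles of genes are general background.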

Additional observations from a re-analysis of the deposited data

How the results depend on the processing

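The counts of called genes differed with the genes tested together and the model of the spread. Over all tested genes, 0 were called lower and 0 higher, against 1 and 4 with TPM scaling, 176 and 37 among protein-coding genes and 58 and 22 by limma voom, and 1 higher without the mean-variance trend. With the replicate number as a block, 84 were lower and 14 higher. Deviations of same-numbered testes correlated at only 0.066, 0.016 and 0.088. The labels do not say whether the numbers pair the testes, and these correlations cannot decide it. No collagen or laminin was called with the block, and 1 basement membrane chain, *Col15a1*, was then higher at an unadjusted p under 0.05, against 0. Leaving out one testis at a time gave 0 to 15 lower and 0 to 3 higher genes, the most without Ctrl 2. Among the chains, 2 were called higher (*Col9a2* and *Col25a1*) in protein-coding genes and by limma voom, and 2 were lower at an unadjusted p under 0.05 in both, the basement membrane chains *Col4a3* and *Col4a4*. Leaving out testes, the chains lower at that p numbered 1 to 3, all of the basement membrane class, where 1 to 3 were lower (most without Ctrl 2) and 0 to 2 higher (most without Ctrl 1), and the fibrillar chains higher numbered 1 to 2. The signs of small fold changes depended on single testes. The log2 fold changes with one testis left out were -0.10 to 0.26 for *Col3a1*, -0.33 to 0.27 for *Col1a1*, -0.0093 to 0.20 for *Col6a1*, -0.17 to 0.26 for *Col1a2*, -0.12 to 0.18 for *Col6a2*, -0.088 to 0.28 for *Col5a1*, -0.094 to 0.31 for *Lamc3*, -0.062 to 0.27 for *Lamb2*, -0.057 to 0.11 for *Lamc1*, -0.15 to 0.12 for *Col4a5*, -0.19 to 0.20 for *Col14a1* and -0.0018 to 0.40 for *Lama1*. Quantile normalization turned *Col1a1* to -0.031 and *Col4a5* to 0.0071. Of 480 values of 30 chains under 16 alternatives, 457 kept their sign and side of the threshold, 4 were newly past it and 19 in 12 chains had the other sign. No scaling moved the median of all tested genes by more than 0.019. The causes of these shifts were not tested. With 3 testes a group, the 95% interval of *Col1a1*, an abundant chain, was -0.70 to 0.74, so a difference within this range could be missed.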
